A study of Mus musculus with 6 samples.

Results

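Killer lectin-like receptors are C-type lectin receptors of natural killer cells and of activated or memory CD8+ T cells, and the activating ones signal through small adaptor proteins. The group described here is 10 of the 32227 genes in the count tables, chosen by symbol: the 7 receptor genes Klrd1, Klrc1, Klrc2, Klre1, Klrk1, Klrg1 and Klrb1c and the 3 adaptor genes Hcst, Tyrobp and Fcer1g. All 10 were found under these symbols. Their raw transcript counts (unique molecular identifiers, UMIs) were read in 6 single-cell libraries, by tissue, by label, and in cells with or without CD8 RNA.

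The study asked how loss of the checkpoint receptor PD-1, encoded by Pdcd1, changes CD8+ T cells in thymus, spleen and tumor. Adult C57BL/6 mice labelled Pdcd1fl/fl carried floxed Pdcd1 alleles and no Cre. Mice labelled Pdcd1 cKO carried the same floxed alleles with E8I CD8-Cre, a Cre under the E8I enhancer of the Cd8a locus, which is active in mature CD8+ T cells. Each tissue gave 1 library per label. Thymic and splenic CD8+ T cells came from mice without tumors and were isolated with a CD8a+ T cell kit. The tumor-infiltrating cells came from subcutaneous B16-OVA tumors, a mouse melanoma line that expresses ovalbumin, taken on day 12 after injection. They were pooled over mice of a genotype and enriched with CD8 microbeads after dissociation and removal of dead cells.

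After the study's own cell filter the thymus libraries held 1067 cells (labelled Pdcd1fl/fl) and 2635 cells (labelled Pdcd1 cKO), with median depths of 4361 and 5417 UMIs per cell. The spleen libraries held 1478 and 4928 cells at 1320.5 and 1615 UMIs, and the tumor libraries 456 and 561 cells at 13809.5 and 9510 UMIs. Total UMIs of the filtered cells were 6389966 and 19143524 in thymus, 2220981 and 8923997 in spleen and 9380835 and 7924590 in tumor. The filter took the most from the spleen library labelled Pdcd1fl/fl, which had 6929 barcodes at a median of 728 UMIs. No filtered cell barcode was shared between libraries, and only the spleen pair shared any before filtering (2 barcodes). With 1 library per label and tissue there is no replicate, so no difference below was tested and every direction is between 2 libraries. Levels are given as CPM, the UMIs of a gene per 1000000 UMIs of the cells named, and the 95% intervals (exact Poisson for levels, conditional binomial for ratios, Clopper-Pearson for shares) cover counting error only.

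Pdcd1 itself went against the labels in thymus and spleen. Among cells with CD8 RNA, defined as at least 1 UMI of Cd8a or Cd8b1, the thymus libraries held 9 UMIs of Pdcd1 (2.46 CPM, labelled Pdcd1fl/fl) and 116 (9.16 CPM, labelled Pdcd1 cKO). The spleen libraries held 1 UMI (0.724 CPM) and 89 UMIs (12.2 CPM) in the same order, and the tumor libraries 702 (105 CPM) and 799 (113 CPM). The log2 ratios were 1.90 (0.92 to 3.06) in thymus, 4.07 (1.55 to 9.39) in spleen and 0.10 (−0.05 to 0.25) in tumor. PIPseq counts 3′ ends of transcripts, and whether the counted end of Pdcd1 lies in the deleted part is not given in the sources used here. For this reason every library is named below by its label only, and each direction between labels in thymus and spleen is one between libraries whose Pdcd1 RNA goes against the labels. The paper reports that flow cytometry showed loss of PD-1 in thymic CD8+ T cells of this model. In these libraries thymic Gzmb was higher and Gzma lower under the label Pdcd1 cKO, as given below. The thymic Pdcd1 counts take in cells with RNA of immature thymocytes, as given below, while E8I Cre is active in mature cells. Pdcd1 is not split by such RNA here. The labels themselves were not tested. In tumor Pdcd1 RNA does not tell the labels apart, since the interval holds 0.

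The libraries were not pure CD8+ T cells by RNA. Cells with CD8 RNA numbered 589 and 1753 in thymus, 863 and 3885 in spleen and 344 and 512 in tumor. RNA of Dntt, Rag1 or Rag2, genes of T cell receptor rearrangement in immature thymocytes, was present in 62.6% and 47.7% of the thymic cells with CD8 RNA. In tumor, 65.8% and 32.3% of all filtered cells had at least 3 UMIs of the melanoma markers Pmel, Mlana, Dct and Tyrp1. UMIs of at least 2 of 10 myeloid markers were found in 20.3% and 22.9% of tumor cells with CD8 RNA and in 51.8% and 67.3% of those without.

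The family works through pairs of receptor and partner. CD94 (Klrd1) joins NKG2A (Klrc1) into an inhibitory receptor, or NKG2C (Klrc2) into an activating one, for the nonclassical class I molecule Qa-1, encoded by H2-T23. NKG2D (Klrk1) is an activating receptor for stress-induced ligands that signals through DAP10 (Hcst), and in mice it can also use DAP12 (Tyrobp). DAP12 (Tyrobp) and the Fc receptor gamma chain (Fcer1g) carry immunoreceptor tyrosine-based activation motifs and serve many receptors of natural killer and myeloid cells.

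**Figure D1:**
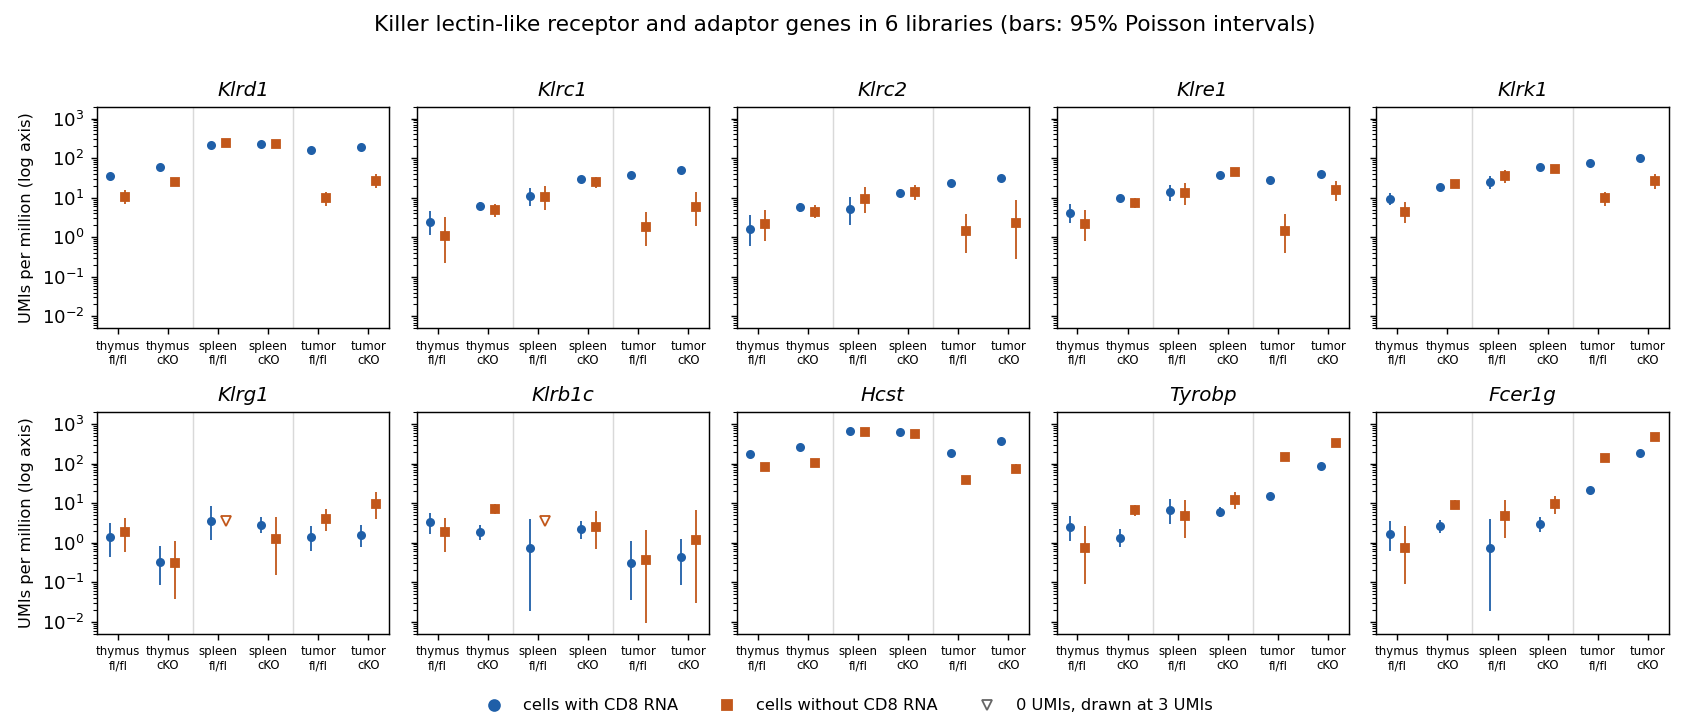
Level of each of the 10 genes in the 6 libraries, in CPM (UMIs per 1000000) on a log axis, for cells with CD8 RNA (circles) and without (squares), with 95% Poisson bars; open triangles mark 0 UMIs, drawn at the level of 3 UMIs. In tumor Klrd1 was at 157 and 188 CPM with CD8 RNA and at 9.58 and 27.1 CPM without (labelled Pdcd1fl/fl, then Pdcd1 cKO), and Tyrobp and Fcer1g were higher without CD8 RNA in both tumor libraries.

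Across tissues, Klrd1, which encodes the shared subunit of the CD94 receptors, was highest in spleen under both labels, and Klrc1, Klrc2 and Klrk1 were highest in tumor. Between labels, Klrc1, Klrc2, Klre1 and Klrk1 were at least 2-fold higher in the thymus and spleen libraries labelled Pdcd1 cKO, where Pdcd1 RNA goes against the labels, and Tyrobp and Fcer1g in the tumor library of that label. Among thymic cells without Dntt, Rag1 or Rag2 RNA, only Klrc2 of these 4 was at least 2-fold higher, and its interval holds 0. These and the values that follow are for cells with CD8 RNA, and values given in pairs are for the library labelled Pdcd1fl/fl first.

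Klrd1 was counted 131 times in the thymus library labelled Pdcd1fl/fl (35.8 CPM, 29.97 to 42.5) and 742 times in the one labelled Pdcd1 cKO (58.6 CPM, 54.5 to 63.0). In spleen it had 295 UMIs (214 CPM, 190.0 to 239) and 1697 UMIs (232 CPM, 221 to 243), and in tumor 1045 (157 CPM, 147 to 167) and 1328 (188 CPM, 178 to 198). By CPM, spleen was the highest of the 3 tissues under both labels. The log2 ratios of spleen over thymus were 2.58 (2.27 to 2.88) and 1.98 (1.86 to 2.11), and those of tumor over spleen −0.45 (−0.63 to −0.26) and −0.30 (−0.41 to −0.20). The 2 spleen intervals overlap, and the log2 ratio of the library labelled Pdcd1 cKO over the other was 0.12 (−0.06 to 0.30). The same ratio was 0.71 (0.44 to 0.99) in thymus and 0.26 (0.14 to 0.38) in tumor, and the thymus value moved to −0.10 among cells without Dntt, Rag1 or Rag2 RNA. The tumor value moved to −0.08 when at least 2 CD8 UMIs were asked for and to −0.07 when CD8 RNA was read after thinning.

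Klrc1, the inhibitory partner, was lowest in thymus and highest in tumor under both labels. It had 9 UMIs (2.46 CPM, 1.13 to 4.67) and 77 UMIs (6.08 CPM, 4.80 to 7.60) in thymus, 15 (10.9 CPM, 6.08 to 17.9) and 220 (30.04 CPM, 26.2 to 34.3) in spleen, and 248 (37.2 CPM, 32.7 to 42.1) and 345 (48.8 CPM, 43.7 to 54.2) in tumor. The library labelled Pdcd1 cKO was the higher one in each tissue, by 2.47-fold in thymus (log2 1.30, 0.30 to 2.49) and 2.77-fold in spleen (log2 1.47, 0.71 to 2.33), where the other library rests on 9 and 15 UMIs. Without cells with Dntt, Rag1 or Rag2 RNA the thymic log2 ratio was 0.46 (−0.77 to 1.98). In tumor the log2 ratio was 0.39 (0.15 to 0.63), and it was −0.15 with CD8 RNA read after thinning.

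Klrc2, the activating partner, had the same order of tissues, although the thymus and spleen intervals overlap under the label Pdcd1fl/fl. Thymus had 6 UMIs (1.64 CPM, 0.602 to 3.57) and 72 UMIs (5.69 CPM, 4.45 to 7.16), spleen 7 (5.07 CPM, 2.04 to 10.4) and 97 (13.2 CPM, 10.7 to 16.2), and tumor 153 (22.9 CPM, 19.5 to 26.9) and 219 (30.9 CPM, 27.0 to 35.3). The log2 ratios between labels were 1.79 (0.60 to 3.29), 1.39 (0.29 to 2.74) and 0.43 (0.13 to 0.74), the first of them 1.05 (−0.41 to 2.98) without cells with Dntt, Rag1 or Rag2 RNA and the last −0.05 with CD8 RNA read after thinning. Klrc1 and Klrc2 share sequence: of all stretches of 91 bases in their annotated transcripts, a length chosen after the values were seen because the transcript read had it, 17.6% of those of Klrc1 (379 of 2156) also occur in Klrc2, and 8.51% of those of Klrc2 (531 of 6240) occur in Klrc1 or Klrc3. Reads from such stretches cannot be assigned, so the split between Klrc1 and Klrc2 is uncertain. No such stretch of Klrd1, Klre1 or Klrk1 was found in another listed gene.

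Klre1, which pairs with the receptors Klri1 and Klri2, had 15 UMIs (4.10 CPM, 2.30 to 6.77) and 122 UMIs (9.63 CPM, 8.0 to 11.5) in thymus. Spleen held 19 (13.8 CPM, 8.28 to 21.5) and 273 (37.3 CPM, 33.0 to 42.0), and tumor 189 (28.3 CPM, 24.4 to 32.7) and 281 (39.7 CPM, 35.2 to 44.6). Its log2 ratios between labels were 1.23 (0.45 to 2.11), 1.44 (0.77 to 2.19) and 0.49 (0.22 to 0.76), the first of them 0.25 (−0.72 to 1.37) without cells with Dntt, Rag1 or Rag2 RNA and the last 0.19 with at least 2 CD8 UMIs. The log2 ratio of tumor over spleen was 0.09 (−0.15 to 0.34) under the label Pdcd1 cKO and 1.04 (0.36 to 1.81) under the label Pdcd1fl/fl. The difference between these 2 ratios was not tested. The partner Klri1 had at most 2 UMIs in a library, and Klri2 had 7 and 38 UMIs in the tumor libraries and at most 14 in any other.

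Klrk1, the NKG2D gene, had 34 UMIs (9.30 CPM, 6.44 to 13) and 241 UMIs (19.0 CPM, 16.7 to 21.6) in thymus. Spleen held 34 (24.6 CPM, 17.1 to 34.4) and 442 (60.3 CPM, 54.9 to 66.2), and tumor 514 (77.1 CPM, 70.6 to 84.1) and 696 (98.4 CPM, 91.2 to 106). Spleen was above thymus (log2 1.40, 0.67 to 2.13, and 1.66, 1.44 to 1.90) and tumor above spleen (1.65, 1.15 to 2.19, and 0.70, 0.53 to 0.88) under both labels. Between labels it was 2.05-fold higher in the thymus library labelled Pdcd1 cKO (log2 1.03, 0.51 to 1.60) and 2.45-fold in spleen (1.29, 0.79 to 1.84), with 0.35 (0.19 to 0.52) in tumor. The thymus value was 1.78 with at least 2 CD8 UMIs, 1.66 with CD8 RNA read after thinning and 0.15 (−0.43 to 0.78) among cells without Dntt, Rag1 or Rag2 RNA. The tumor value was 0.00 with at least 2 CD8 UMIs and −0.11 after thinning.

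Klrg1, an inhibitory receptor for cadherins and a marker of terminal effector cells, had at most 21 UMIs in a library. It had 5 and 4 UMIs in thymus (1.37 and 0.316 CPM), 5 and 21 in spleen (3.62 and 2.87 CPM) and 9 and 11 in tumor (1.35 and 1.55 CPM). Each interval of its log2 ratio between labels holds 0, with −2.11 (−4.45 to 0.10) in thymus, −0.34 (−1.78 to 1.43) in spleen and 0.20 (−1.20 to 1.65) in tumor. Over all filtered thymic cells, with or without CD8 RNA, it had 10 UMIs (1.56 CPM, 0.750 to 2.88) and 6 UMIs (0.313 CPM, 0.115 to 0.682). These level intervals do not overlap. Klrb1c, the NK1.1 antigen of C57BL/6 natural killer and natural killer T cells, had 12 and 23 UMIs in thymus (3.28 and 1.82 CPM), 1 and 16 in spleen (0.724 and 2.18 CPM) and 2 and 3 in tumor (0.3 and 0.424 CPM). Its ratios between labels were −0.85 (−1.92 to 0.29), 1.59 (−1.09 to 6.98) and 0.50 (−2.63 to 4.08), so a difference was not detectable at this depth. Among thymic cells with CD8 RNA and without Dntt, Rag1 or Rag2 RNA its ratio was −1.70 (−3.16 to −0.12), on 7 and 12 UMIs. Few of its 91-base stretches occur in Klrb1a (18 of 3542, 0.508%).

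Hcst, the DAP10 adaptor of NKG2D, was highest in spleen under both labels, a different order of tissues from that of its receptor Klrk1. It had 635 UMIs (174 CPM, 160.5 to 188) and 3313 UMIs (262 CPM, 253 to 271) in thymus, 936 (678 CPM, 635 to 723) and 4662 (637 CPM, 618 to 655) in spleen, and 1262 (189 CPM, 179 to 200.01) and 2599 (367 CPM, 353 to 382) in tumor. Its log2 ratio of tumor over spleen was −1.84 and −0.79 (labelled Pdcd1fl/fl and Pdcd1 cKO), and that of Klrk1 was above 0 under both labels. Between labels its log2 ratio was 0.59 (0.47 to 0.72) in thymus, −0.09 (−0.19 to 0.01) in spleen and 0.96 (0.86 to 1.05) in tumor. Scaling by the median of ratios in place of the total gave 0.77, −0.27 and 1.09, with the same directions.

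Tyrobp and Fcer1g, the adaptors with activation motifs, were at most 6.52 CPM outside the tumor. Tyrobp had 9 and 17 UMIs in thymus (2.46 and 1.34 CPM) and 9 and 44 in spleen (6.52 and 6.01 CPM), against 100 (14.998 CPM, 12.2 to 18.2) and 608 (85.9 CPM, 79.2 to 93.0) in tumor. Fcer1g had 6 and 33 UMIs in thymus (1.64 and 2.61 CPM) and 1 and 22 in spleen (0.724 and 3.004 CPM), against 142 (21.3 CPM, 17.9 to 25.1) and 1268 (179 CPM, 169 to 189) in tumor. The tumor library labelled Pdcd1 cKO stood above the other by 5.73-fold for Tyrobp (log2 2.52, 2.21 to 2.84) and by 8.41-fold for Fcer1g (log2 3.07, 2.82 to 3.33). In thymus the ratios were −0.88 (−2.12 to 0.47) for Tyrobp and 0.67 (−0.61 to 2.21) for Fcer1g, and in spleen −0.12 (−1.17 to 1.10) and 2.05 (−0.58 to 7.42). Under the label Pdcd1 cKO, 11 of the 22 spleen UMIs of Fcer1g were in 1 cell with at least 2 myeloid markers, and with at least 2 CD8 UMIs asked for the spleen log2 ratio was −0.22. The difference between tissues was not tested.

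**Figure D2:**
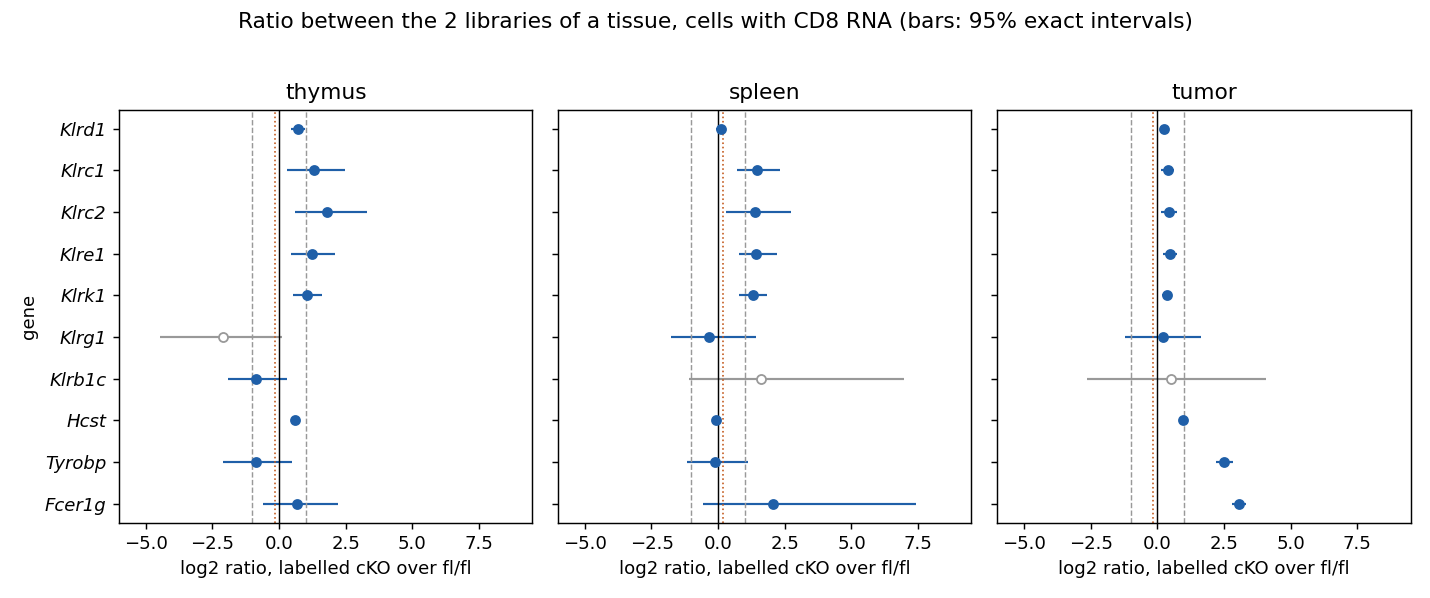
Log2 ratio of each gene between the 2 libraries of a tissue (labelled Pdcd1 cKO over labelled Pdcd1fl/fl) in cells with CD8 RNA, with 95% exact intervals. Dashed lines mark 2-fold, dotted lines the median of all genes tested, and open gray points genes with fewer than 20 UMIs in the pair; Tyrobp (2.52) and Fcer1g (3.07) lie past 2-fold in tumor, and Klrc1, Klrc2, Klre1 and Klrk1 do in thymus and spleen, with Fcer1g in spleen (2.05).

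Set beside all genes, the share of the members at least 2-fold higher in the library labelled Pdcd1 cKO was above the background share in each tissue, and none was at least 2-fold lower. A gene was counted where the 2 libraries together held at least 20 UMIs. In thymus 4 of 9 counted genes were higher (Klrc1, Klrc2, Klre1 and Klrk1) and 0 lower, where 6.46% of 13137 genes were higher and 6.56% lower, and the median log2 ratio was 0.71 for the 9 and −0.15 for all genes. In spleen 5 of 9 were higher (the same 4 with Fcer1g, which rests on 22 UMIs against 1 and had the other direction with at least 2 CD8 UMIs) and 0 lower, beside 10.8% and 2.89% of 11507 genes, with medians of 1.29 and 0.18. In tumor 2 of 9 were higher, Tyrobp and Fcer1g, and 0 lower, beside 7.24% and 9.99% of 13270 genes, with medians of 0.43 and −0.15. The direction is that of the labels, which Pdcd1 RNA goes against in thymus and spleen.

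The thymic ratios of Klrd1, Klrc1, Klrc2, Klre1, Klrk1 and Hcst were smaller among cells without RNA of immature thymocytes. Among cells with CD8 RNA and no UMI of Dntt, Rag1 or Rag2, Klrd1 was at 103 and 96.6 CPM (labelled Pdcd1fl/fl, then Pdcd1 cKO; log2 −0.10, −0.43 to 0.24), and Klrk1 at 31.8 and 35.3 CPM (0.15, −0.43 to 0.78). Klre1 was at 11.4 and 13.5 CPM (0.25, −0.72 to 1.37), Klrc1 at 6.82 and 9.39 CPM (0.46, −0.77 to 1.98) and Hcst at 379.7 and 416 CPM (0.13, −0.03 to 0.30). Of the counted genes only Klrc2, with 4 and 46 UMIs, was at least 2-fold higher (log2 1.05, −0.41 to 2.98), which makes 1 of 6 counted genes, with a median of 0.20, against 4.76% of 10468 genes. Cells with CD8 RNA and with a UMI of Dntt, Rag1 or Rag2 had lower levels of Klrd1, Klrk1 and Hcst, and there Klrd1 was at 14.4 and 34.6 CPM (log2 1.27, 0.78 to 1.78), Klrk1 at 2.16 and 8.76 CPM (2.02, 0.82 to 3.51) and Hcst at 108 and 164 CPM (0.60, 0.41 to 0.78). In these cells 6 of 7 counted genes were at least 2-fold higher under the label Pdcd1 cKO and 0 lower, with a median of 1.88, where 5.88% of 11921 genes were higher. The 6 were Klrd1, Klrk1, Klrc1 (3 and 31 UMIs), Klrc2 (2 and 26), Klre1 (5 and 56) and Fcer1g (2 and 19). The share of such cells also differed, as given above, and the 5 immature thymocyte markers (Dntt, Rag1, Rag2, Ptcra and Cd4, all detected, led by Dntt) summed to 488 and 318 CPM in all cells with CD8 RNA. Whether these cells set the thymic ratios was not tested.

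Markers of gamma-delta T cells and of natural killer cells were read in both thymus libraries. The 4 gamma-delta T cell markers (Trdc, Trgc1, Trgc2 and Trgc4, all detected) summed to 392 and 284 CPM in cells with CD8 RNA, led by Trdc. In cells without CD8 RNA they summed to 668 and 793 CPM, led by Trdc and, under the label Pdcd1 cKO, by Trgc2. The 6 natural killer markers summed to 15.6 CPM (4 of 6 detected, Ncr1 and Klra4 at 0) and 14.5 CPM (6 of 6) in cells with CD8 RNA, led by Klra9 in both. Their part in the thymic ratios was not tested.

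Cells with and without CD8 RNA were compared inside each library, where the labels play no part. In tumor, Klrd1, Klrc1, Klrc2, Klre1, Klrk1 and Hcst were at least 2-fold higher in cells with CD8 RNA in both libraries. Under the label Pdcd1fl/fl, Klrd1 was at 157 CPM with and 9.58 CPM without CD8 RNA (log2 4.03, 3.47 to 4.65), and under the label Pdcd1 cKO at 188 and 27.1 CPM (2.79, 2.20 to 3.45). Klrk1 was at 77.1 and 9.58 CPM (3.01, 2.44 to 3.64) and at 98.4 and 25.9 CPM (1.92, 1.31 to 2.61). Klrc1, Klrc2 and Klre1 rest on 4 or 5 UMIs without CD8 RNA in the first library, with log2 ratios of 4.34 (3.09 to 5.97), 3.96 (2.57 to 5.85) and 4.27 (2.88 to 6.16). In the second library they had 5, 2 and 13 such UMIs and ratios of 3.05 (1.81 to 4.68), 3.72 (1.84 to 6.77) and 1.37 (0.58 to 2.30). Hcst was higher with CD8 RNA as well, at 189 over 38.7 CPM and 367 over 74.2 CPM.

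Tyrobp and Fcer1g were lower in the tumor cells with CD8 RNA than in those without. Without CD8 RNA Tyrobp was at 145 and 338 CPM and Fcer1g at 140.1 and 465 CPM, and the log2 ratios of cells with over cells without were −3.28 (−3.61 to −2.96) and −1.98 (−2.18 to −1.77) for Tyrobp and −2.72 (−3.01 to −2.44) and −1.38 (−1.54 to −1.21) for Fcer1g. Klrg1, at 9 and 11 UMIs with and 11 and 8 without CD8 RNA, had ratios of −1.59 (−3.04 to −0.18) and −2.60 (−4.05 to −1.08). Its UMIs without CD8 RNA lay in 3 cells of each library, with up to 6 and 4 in 1 cell, and the shares of cells with a UMI overlapped, at 2.62% (1.203 to 4.91) with and 2.68% (0.556 to 7.63) without under the label Pdcd1fl/fl and 1.76% (0.807 to 3.31) and 6.12% (1.28 to 16.9) under the other. Under the label Pdcd1fl/fl, 6 of 9 counted genes were at least 2-fold higher with CD8 RNA and 3 lower, where 6.7% of 12321 genes were higher and 12% lower. Under the label Pdcd1 cKO, 6 of 8 were higher and 2 lower, where 9.99% of 11631 genes were higher and 23.2% lower. Without cells with a UMI of C1qa, C1qb, C1qc or Lyz2, a choice made after seeing the data, 1 was lower in each library, and without cells with at least 2 myeloid markers 2 and 1 were. The medians over the counted members were 3.01 and 2.12, and −0.36 and −0.35 over all genes.

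In spleen the levels with and without CD8 RNA were within 2-fold for Klrd1, Klrk1 and Hcst in both libraries. Klrd1 was at 240.4 and 230.1 CPM without CD8 RNA, with log2 ratios of cells with over cells without of −0.17 (−0.43 to 0.10) and 0.01 (−0.15 to 0.18). Klrk1 was at 34.5 and 51.9 CPM without (−0.49, −1.25 to 0.28, and 0.22, −0.12 to 0.57), and Hcst at 624 and 566 CPM (0.12, −0.04 to 0.28, and 0.17, 0.07 to 0.27). In the library labelled Pdcd1fl/fl 0 of 5 counted genes were higher and 0 lower (3.69% and 3.16% of 7588 genes), with a median of 0.02 against 0.01 over all genes. In the one labelled Pdcd1 cKO 1 of 10 was higher, Klrg1 on 21 against 2 UMIs (log2 1.2, −0.83 to 4.33), and 1 lower, Fcer1g on 22 against 15 UMIs (−1.64, −2.65 to −0.59), where 3.85% and 2.93% of 11637 genes were. With at least 2 CD8 UMIs asked for, 0 were higher and 0 lower. The counted members had a median of −0.02, and all genes one of −0.01. At 1252 and 1381 UMIs per cell (medians), whether spleen cells without CD8 RNA lack it or were read too shallowly was not tested, and 85.7% and 91.5% of them had RNA of a CD3 chain.

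In thymus, Klrd1 and Hcst were at least 2-fold higher with CD8 RNA in both libraries, and Klrk1 in the one labelled Pdcd1fl/fl. Under the label Pdcd1fl/fl, Klrd1 (35.8 over 10.6 CPM), Klrk1 (9.30 over 4.39 CPM) and Hcst (174 over 81.2 CPM) were at least 2-fold higher with CD8 RNA, which is 3 of 4 counted genes with 0 lower, beside 4.72% and 2.11% of 10848 genes and medians of 1.09 and 0.02. With at least 2 CD8 UMIs asked for, 1 of the 4 counted was higher. Under the label Pdcd1 cKO, Klrd1 (58.6 over 24.2 CPM) and Hcst (262 over 103 CPM) were higher and Klrb1c (1.82 over 7.25 CPM), Tyrobp (1.34 over 6.64 CPM) and Fcer1g (2.61 over 9.10 CPM) lower, 2 and 3 of 9 counted genes, beside 4.1% and 6.09% of 13715 genes and medians of 0.35 and −0.20. Klrk1 was at 19.0 CPM with and 22.2 CPM without CD8 RNA there (log2 −0.22, −0.53 to 0.08). The difference between the 2 libraries was not tested.

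Among thymic cells without CD8 RNA, 8 of 9 counted members were at least 2-fold higher under the label Pdcd1 cKO and 0 lower, beside 10.1% and 4.91% of 11924 genes, with medians of 1.99 and 0.08. The 8 were Klrd1 (10.6 and 24.2 CPM), Klrc1 (1.10 and 4.78 CPM), Klrc2 (2.19 and 4.48 CPM), Klre1 (2.19 and 7.56 CPM), Klrk1, Klrb1c, Tyrobp and Fcer1g, and Hcst was at 81.2 and 103 CPM (log2 0.34, 0.12 to 0.57). Of the 8, Fcer1g had 2 and 59 UMIs (log2 3.64, 1.72 to 6.72), Tyrobp 2 and 43 (3.18, 1.24 to 6.27), Klrb1c 5 and 47 (1.99, 0.66 to 3.68) and Klrk1 12 and 144 (2.34, 1.49 to 3.33). The sums of natural killer and of innate-like T cell markers were higher there as well. The natural killer markers summed to 9.14 CPM (2 of 6 detected, Ncr1, Klra8, Klra4 and Itga2 at 0) and 62.8 CPM (5 of 6, Klra4 at 0), led by Klra9 with 20 and 352 UMIs. The 3 innate-like T cell markers Zbtb16, Klrb1c and Il2rb summed to 18.3 and 51.2 CPM, led by Il2rb. Nearly all of the natural killer sum was Klra9 and Klrb1c in both libraries. Klrb1c is a member, and it is in both of these marker lists. The 4 mast cell and basophil markers summed to 16.8 and 50.8 CPM (1 and 2 of 4 detected), nearly all of it Cpa3, with Ms4a2 and Fcer1a at 0 in both. The part of these cells in the difference was not tested.

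Myeloid markers were higher in the tumor library with more Tyrobp and Fcer1g RNA. All 10 myeloid markers were detected in both libraries, and they summed to 478 and 790 CPM in cells with CD8 RNA and to 1780 and 2497 CPM in cells without. Apoe, which melanoma cells also express, led in cells with CD8 RNA (2652 and 2000 UMIs), and in cells without Apoe (2042 UMIs) and, under the label Pdcd1 cKO, Lyz2 (667 UMIs) led. The C1q genes had more UMIs in the library labelled Pdcd1 cKO (C1qb 113 and 943), and Lyz2 did so too (135 and 1030). Cells with CD8 RNA and at least 2 myeloid markers held 73% and 88.8% of the Tyrobp UMIs and 57.0% and 71.4% of the Fcer1g UMIs. The part of myeloid cells in the tumor ratios was not tested beyond the values without these cells.

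Without those cells Tyrobp and Fcer1g were lower in both tumor libraries and at least 2-fold higher in the one labelled Pdcd1 cKO. Tyrobp was then at 6.64 CPM (27 UMIs) and 15.7 CPM (68 UMIs), 2.36-fold higher in the library labelled Pdcd1 cKO (log2 1.24, 0.58 to 1.94). Fcer1g was at 15.0 CPM (61 UMIs in 32 cells) and 83.7 CPM (363 UMIs in 116 cells), 5.58-fold higher (log2 2.48, 2.09 to 2.90). These are the 2 of 8 counted genes that were at least 2-fold higher, where 5.9% of 11190 genes were. The 5 cells with the most Fcer1g held 24.5% of its 363 UMIs. Leaving out instead every cell with a UMI of C1qa, C1qb, C1qc or Lyz2, a choice made after seeing the data, gave log2 ratios of 0.87 for Tyrobp, under 2-fold, and 2.20 for Fcer1g. Over all filtered cells, with or without CD8 RNA, the ratios were 1.10 and 1.92.

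The share of Fcer1g in the joint UMIs of Fcer1g and Tyrobp was higher in tumor cells with CD8 RNA and fewer than 2 myeloid markers than in those with at least 2, with overlapping intervals under the label Pdcd1fl/fl. Under the label Pdcd1fl/fl, Fcer1g made up 52.6% of these UMIs (44.4 to 60.7) in cells with CD8 RNA and at least 2 myeloid markers, and 69.3% (58.6 to 78.7) below 2 markers. Under the label Pdcd1 cKO these shares were 62.6% (60.1 to 65.1) and 84.2% (80.4 to 87.5). Without CD8 RNA the shares were 49.1% (45.5 to 52.7) and 57.9% (54.1 to 61.7). Per UMI of Tyrobp there were 5.34 UMIs of Fcer1g in cells of the library labelled Pdcd1 cKO with CD8 RNA and fewer than 2 myeloid markers, against 1.68 in those with at least 2. Few cells carried the latter: the 5 cells with the most Fcer1g held 82.7% and 61.0% of its UMIs in cells with CD8 RNA and at least 2 markers, with up to 34 and 176 in 1 cell.

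Other receptors that use these adaptors were higher in the same tumor library. Of 9 with at least 20 UMIs, 9 were at least 2-fold higher in the one labelled Pdcd1 cKO (cells with CD8 RNA, median log2 ratio 2.99), from Sirpb1a (1.75) to Clec4e (5.27). Of all 13270 genes counted, 7.24% were. They included the Fc receptor Fcgr3 (26 and 151 UMIs) and the C-type lectin Clec4d (6 and 163 UMIs), genes of myeloid cells. Below 2 myeloid markers 2 were left to count, Fcgr3 (1.59) and Fcgr4 (1.41), both at least 2-fold higher, where 5.9% of 11190 genes were. In thymus and spleen only Fcgr3 could be counted, at 1.01 and 0.84.

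Hcst was at a like ratio with and without the cells with myeloid markers. Its level below 2 myeloid markers was 264 and 486 CPM in tumor (log2 0.88, 0.77 to 0.99), beside 0.96 over all cells with CD8 RNA. Cells with at least 2 markers held 15.0% and 18.9% of its UMIs. Its tumor ratio was 0.64 with at least 2 CD8 UMIs and 1.2 over all filtered cells.

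Melanoma RNA was higher in the tumor library labelled Pdcd1fl/fl, and T cell and CD8 RNA was lower there. The 4 melanoma markers, all detected, summed to 6634 and 3813 CPM in cells with CD8 RNA, led by Dct (17402 UMIs) and Pmel (9979 UMIs). The 6 T cell markers Cd3e, Cd3d, Cd3g, Trac, Trbc1 and Trbc2 summed to 3057 and 4505 CPM, and the 2 CD8 genes to 444 and 690 CPM. What part of the tumor ratios of 0.26 to 0.49 for Klrd1, Klrc1, Klrc2, Klre1 and Klrk1 goes with the unequal share of T cell RNA was not tested. The part of melanoma RNA in the order of tissues by CPM was not tested either.

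Shares of cells were compared after each cell was thinned to 1000 UMIs. A UMI of any of the 7 receptors was then found in 6.79% (4.90 to 9.13) and 9.75% (8.41 to 11.2) of thymic cells with CD8 RNA, 20.7% (18.1 to 23.6) and 28.2% (26.8 to 29.7) in spleen and 34.0% (29.0 to 39.3) and 35.0% (30.8 to 39.3) in tumor. Unthinned shares were 19.7% and 30.2%, 30.6% and 41.8%, and 82.6% and 89.1%. The tumor pair and the thymus pair overlap after thinning, and the spleen pair does not. Klrd1 had thinned shares of 4.41% and 6.67% in thymus, 16.2% and 19.5% in spleen and 19.8% and 20.5% in tumor. By these shares spleen was not above tumor, unlike the order by CPM.

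The share of cells that should lack the receptors was read in the same way. Thymic cells with Dntt or Rag RNA, immature cells in which these receptors should be scarce, had a receptor UMI in 2.35% (1.40 to 3.69) and 6.29% (5.12 to 7.64) of cells after thinning, and in 11.2% and 18.3% before. Their median depth was 5195.5 and 6116.5 UMIs, against 4353 and 5486 in cells with CD8 RNA. The thymic share without Dntt or Rag RNA was 13.6% (9.39 to 18.9) and 11.5% (9.47 to 13.7) among cells with CD8 RNA, with the interval above that background in both. The background intervals did not overlap between labels, while those without Dntt or Rag RNA did, with the other order. Cells with Dntt or Rag RNA are thus no equal background for the labels. Among those with CD8 RNA, most counted members were higher under the label Pdcd1 cKO, as given above. In tumor, cells with neither CD8 nor CD3 RNA in the library labelled Pdcd1fl/fl had a receptor UMI in 9.38% (1.98 to 25.0) of 32 cells at a median of 8619.5 UMIs, against 13497 in cells with CD8 RNA, and the other library had 3 such cells. Cells with at least 3 melanoma UMIs are no clean background, since they are most of the first tumor library, and had Klrd1 in 13% and 14.9%. In spleen no cell type that should lack these genes was set apart, although B cell and granulocyte progenitor RNA was read there, as given below. Its 88 and 89 cells with neither CD8 nor CD3 RNA had a receptor UMI in 20.5% and 21.3%.

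Hcst was read in a similar share of cells of both spleen libraries, and in a higher share under the label Pdcd1 cKO in thymus and tumor. After thinning, 17.3% and 24.9% of thymic cells with CD8 RNA had a UMI of it, 46.1% and 44.6% in spleen and 27.0% and 36.3% in tumor, and unthinned 53.5% and 68.9%, 58.9% and 62.1%, and 86.9% and 95.1%. Klrk1 had thinned shares of 1.53% and 2.00%, 2.20% and 5.07%, and 11.05% and 9.38%. Fcer1g reached 1.16% and 9.96% in tumor, and Tyrobp 0.581% and 4.10%. Klrc2 was read in 0 of 589 thymic cells with CD8 RNA labelled Pdcd1fl/fl after thinning and in 6 (1.02%) unthinned, so the 0 is one of UMIs read at the thinned depth and not of cells that express the gene.

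Several receptors were often found together in the deep tumor cells. Unthinned, 43.0% and 46.5% of tumor cells with CD8 RNA had UMIs of at least 3 of the 7 receptors, against 1.70% and 2.97% in thymus and 0.116% and 1.70% in spleen. For at least 2 receptors the unthinned shares were 63.7% and 69.5% in tumor, 3.06% and 8.10% in thymus and 2.43% and 8.73% in spleen. After thinning these were 7.56% and 9.18% in tumor, 1.02% and 1.37% in thymus and 1.04% and 3.40% in spleen. Klrd1 was found in 86.0% (78.8 to 91.5) of tumor cells with Klrc1 and 60.9% (54.1 to 67.5) of those without under the label Pdcd1fl/fl, and in 79.3% (73.3 to 84.6) and 64.5% (58.8 to 70.0) under the other. For Klre1, Klrd1 was found in 89.4% and 86.4% of cells with Klre1 and in 64.1% and 65.3% of cells without. After thinning all these tumor intervals overlapped. Klrd1 was then in 37.5% (15.2 to 64.6) of 16 cells with Klrc1 and 18.9% (14.8 to 23.6) of those without under the label Pdcd1fl/fl, and in 30.4% (13.2 to 52.9) of 23 and 20.04% (16.6 to 23.9) under the other. With and without Klre1 the thinned shares were 14.3% (1.78 to 42.8) and 20% (15.8 to 24.7), the other way round, and 25.8% (11.9 to 44.6) and 20.2% (16.7 to 24.03).

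The library labelled Pdcd1 cKO was the one with enough positive cells to read this in thymus and spleen. In thymus Klrd1 was found in 71.6% (59.9 to 81.5) of 74 cells with Klre1 and in 21.9% (19.96 to 24.0) of those without, and in 53.3% (40.0 to 66.3) of 60 cells with Klrc1 and 22.98% (21.0 to 25.1) of those without. In spleen it was found in 45.6% (38.4 to 52.9) of cells with Klrc1 and 29.7% (28.2 to 31.2) without, and in 36.2% (29.7 to 43.0) with Klre1 and 30.2% (28.7 to 31.7) without. Deeper cells show more of every gene, and after thinning the intervals of the thymic Klrc1 pair (3 of 15 cells, 4.33 to 48.1%, and 6.56%, 5.44 to 7.83) overlapped, and those of the thymic Klre1 pair did too (4 of 16 cells, 7.27 to 52.4%, and 6.51%, 5.39 to 7.77). The thinned spleen intervals overlapped as well, at 27.2% (18.9 to 36.8) with and 19.2% (18.004 to 20.5) without Klrc1 and 27.3% (19.6 to 36.1) with and 19.2% (17.96 to 20.5) without Klre1. In the thymus library labelled Pdcd1fl/fl, a UMI of Klrd1 was read in 0 of the 9 cells with Klrc1, too few cells to compare.

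Unthinned, the adaptor Hcst was read in a higher share of cells with Klrk1 than of cells without, beyond the intervals, in the thymus and spleen libraries labelled Pdcd1 cKO and the tumor library labelled Pdcd1fl/fl. After thinning this held in the thymus library alone. In the other 3 libraries the intervals overlapped, and in the spleen library labelled Pdcd1fl/fl the order was the other way. In the thymus library labelled Pdcd1 cKO 81.8% (73.3 to 88.5) of cells with Klrk1 and 68.0% (65.7 to 70.2) of those without had Hcst, and the thinned shares of 45.7% (28.8 to 63.4) and 24.4% (22.4 to 26.6) did not overlap either. Spleen gave 70.2% (64.9 to 75.1) and 61.4% (59.8 to 63.0) under that label (thinned 49.2%, 42.1 to 56.4, and 44.4%, 42.7 to 46.0), and 46.4% (27.5 to 66.1) and 59.3% (55.9 to 62.6) under the other. Tumor gave 92.9% and 80.1% (labelled Pdcd1fl/fl) and 96.3% and 93.4% (labelled Pdcd1 cKO), and after thinning these tumor intervals overlapped under both labels (34.2%, 19.6 to 51.4, and 26.1%, 21.3 to 31.4; 41.7%, 27.6 to 56.8, and 35.8%, 31.4 to 40.3). Klrk1 and Tyrobp, the other adaptor NKG2D can use in mice, gave lower shares with than without Klrk1 in tumor, with Tyrobp in 7.65% and 20% of cells with Klrk1 and 15.5% and 23.1% of those without, and the intervals overlapped in both libraries.

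Tyrobp was read in a higher share of tumor cells with Fcer1g than of those without, beyond the intervals in the library labelled Pdcd1 cKO, but not among cells with fewer than 2 myeloid markers. In the library labelled Pdcd1 cKO, Tyrobp was in 28.6% (22.1 to 35.7) of cells with Fcer1g and 17.3% (13.4 to 21.8) of those without, and after thinning in 31.4% (19.1 to 45.9) of 51 and 1.08% (0.353 to 2.51) of 461. In the other library it was 20.4% (10.2 to 34.3) and 9.83% (6.68 to 13.8) unthinned, with overlapping intervals. At least 2 myeloid markers were read in 34.7% and 36.3% of cells with Fcer1g and in 18.0% and 15.5% of those without. Below 2 myeloid markers, a choice made after seeing the data, Tyrobp was in 9.38% (1.98 to 25.0) of cells with Fcer1g and 7.85% (4.79 to 11.99) of those without, and in 13.8% (8.09 to 21.4) and 16.5% (12.3 to 21.4) under the label Pdcd1 cKO. Klrc1 and Klrc2 were also found together, with Klrc2 in 41.9% and 40.8% of tumor cells with Klrc1 and in 20% and 20.4% of those without, and the shared sequence of the pair makes these shares uncertain. Of the pair Klrb1c and Fcer1g, 4 of 18 thymic cells with Klrb1c in the library labelled Pdcd1 cKO had Fcer1g, 1 of 8 in the other thymus library, 0 of 15 in the spleen library labelled Pdcd1 cKO and 3 of 3 in the tumor library of that label.

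Memory and effector genes were higher in cells with a receptor UMI than in cells without in thymus and tumor, and their medians were near 0 in spleen. Of 17 such genes, those at least 2-fold higher in cells with CD8 RNA and a receptor UMI than in cells with CD8 RNA and none were 7 of 12 counted (median log2 1.58, highest Ccl5 at 2.42) and 13 of 16 (1.68, Ly6c2 at 2.70) in thymus. In tumor they were 12 of 16 (2.83, Prf1 at 5.31) and 8 of 15 (1.11, Tbx21 at 1.95). Spleen had 0 of 10 (0.10) and 0 of 17 (0.13). The share of all genes past the same fold was 2.71% and 3.55% in thymus, 3.16% and 1.24% in spleen and 9.41% and 11% in tumor. In the tumor library labelled Pdcd1fl/fl the cells without a receptor UMI were the deeper ones (median 30718.5 UMIs against 12359), and in the other they were not (8137 against 9705). UMIs of at least 2 myeloid markers were in 14.1% and 20.4% of the tumor cells with a receptor UMI and in 50% and 42.9% of those without, and their part was not tested. In thymus the cells with a receptor UMI held Dntt, Rag1 or Rag2 RNA in 44.8% (35.6 to 54.3) and 37.4% (33.3 to 41.7), against 67.0% (62.6 to 71.2) and 52.2% (49.4 to 55.04) of those without. Leaving out the cells with such RNA, a choice made after seeing the data, gave 4 of 8 counted (median 1.03) and 10 of 16 (1.15), beside 2.83% and 1.97% of all genes. Naive T cell genes were at least 2-fold higher in 0 of 8 and 1 of 8 in thymus, 0 of 8 in each spleen library and 2 of 7 and 3 of 7 in tumor. In tumor that share was also above the 9.41% and 11% of all genes, so the contrast there was not limited to memory and effector genes.

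Hcst was higher in cells with a receptor UMI than in those without in thymus (269.5 over 150.4 CPM and 442 over 192 CPM) and tumor (242 over 60.7 CPM and 396 over 188 CPM), with log2 ratios of 0.84 (0.59 to 1.09) and 1.2 (1.10 to 1.30) in thymus and 2.00 (1.72 to 2.28) and 1.07 (0.86 to 1.30) in tumor. Without cells with Dntt, Rag1 or Rag2 RNA the thymic values were 0.86 (0.53 to 1.18) and 0.70 (0.57 to 0.83). In spleen it was at 673 and 680.3 CPM (−0.02, −0.22 to 0.18) and at 659.6 and 617 CPM (0.10, 0.01 to 0.18). Fcer1g in the tumor library labelled Pdcd1 cKO was at 180.0 CPM with and 174 CPM without a receptor UMI (log2 0.05, −0.19 to 0.29), and Tyrobp at 83.8 and 98.8 CPM (−0.24, −0.55 to 0.09). In the other tumor library the ratios were −0.22 (−0.74 to 0.32) for Fcer1g and −0.06 (−0.69 to 0.61) for Tyrobp. In the thymus library labelled Pdcd1 cKO Fcer1g was at 6.55 CPM with and 1.09 CPM without a receptor UMI (2.58, 1.46 to 3.82), and in the spleen library of that label the ratio was −1.20 (−2.85 to 0.22, 6 and 16 UMIs).

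Of the 10 genes with the highest ratio in receptor-positive cells of each library (at least 50 UMIs), some had over 50% of the UMIs compared in 1 cell: 1 and 3 of 10 in thymus, 6 and 9 in spleen and 6 and 10 in tumor. The rest in the thymus library labelled Pdcd1fl/fl included Xcl1 (49 UMIs with a receptor UMI and 25 without, log2 2.99 with 0.5 counts added), Ccl5 (831 and 636, 2.42) and Ly6c2 (367 and 303, 2.31). In the thymus library labelled Pdcd1 cKO they included the Ly49 genes Klra7 (83 and 15, 3.81), Klra9 (99 and 32, 3.0) and Klra3 (43 and 15, 2.87), beside Ly6c2 (1562 and 625, 2.70). Shared sequence among the Ly49 genes was not measured, so the split among them may be uncertain. The tumor library labelled Pdcd1fl/fl gave Gzme (83 and 0) and Serpine2 (97 and 0). These ratios describe cells chosen by the receptors and were not tested.

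Among other killer lectin genes in cells with CD8 RNA, 0 were at least 2-fold apart between the thymus libraries. Without cells with Dntt, Rag1 or Rag2 RNA, 1 of 4 counted was lower (Klra7, −1.57), beside 10.7% of all genes. In thymic cells without CD8 RNA, Klra9 was higher under the label Pdcd1 cKO, as given above. Of the 20 found by symbol, 6 could be counted over all thymic cells with CD8 RNA, with 0 at least 2-fold higher or lower, beside 6.46% and 6.56% of all genes. Their median log2 ratio was −0.18, from Klra7 (−0.67) to Klra1 (0.06). In spleen 2 of 7 were higher and 0 lower (median 0.69, highest Klra1 at 1.29), beside 10.8% and 2.89% of all genes. Klra7, at 103 and 561 UMIs, had a log2 ratio of 0.04 there. In tumor 1 of 5 was higher (Klri2, 2.35) and 1 lower (Klra9, −1.26), with a median of −0.38, beside 7.24% and 9.99% of all genes. Klrh1 had 45 and 59 UMIs in tumor and at most 9 elsewhere.

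Genes for ligands of killer lectin-like receptors were also read in the cells with CD8 RNA. Of this list, Clec2d, Clec2i and Clec2g belong to receptors of the family other than the 7 members. H2-T23, whose product Qa-1 binds the CD94 receptors, had 205 and 1265 UMIs in thymus, 81 and 817 in spleen and 581 and 1366 in tumor, and its tumor log2 ratio was 1.15. In thymus 3 of 6 counted ligand genes were at least 2-fold higher in the library labelled Pdcd1 cKO and 0 lower (median 0.93, highest Clec2d at 1.60). The 3 were Clec2d, Cdh1 (log2 1.26, 0.60 to 1.99) and Raet1e. Of all genes, 6.46% were higher there and 6.56% lower. In spleen 1 of 7 was higher, beside 10.8% of all genes (Cdh1, an E-cadherin gene, 6 and 64 UMIs, 1.01, −0.19 to 2.51). There 1 was lower, beside 2.89% of all genes. It was Cdh4 (−2.97), with 28 of its 31 UMIs under the label Pdcd1fl/fl and 10 of 21 under the other in 1 cell each. In tumor 1 of 9 was higher (H2-T23) and 0 lower, beside 7.24% and 9.99% of all genes. With fewer than 2 myeloid markers the tumor ratio of H2-T23 was 0.88, which left 0 of 7 higher, beside 5.9% of all genes, and 1 lower (Cdh2, −2.09). Of the 5 NKG2D ligand genes listed, Raet1e had 30 and 211 UMIs in thymus, where it was at least 2-fold higher (8.21 and 16.7 CPM, log2 1.02, 0.47 to 1.62), 36 and 227 in spleen (0.25, −0.26 to 0.80) and 136 and 118 in tumor (−0.29, −0.66 to 0.08). Ulbp1 had 42 and 209 UMIs in thymus (0.52, 0.04 to 1.04), 19 and 86 in spleen (−0.23, −0.96 to 0.57) and 32 and 34 in tumor (0.00, −0.74 to 0.74). H60b had 44 and 29 UMIs in tumor (−0.69, −1.42 to 0.02) and at most 6 in any other library, Raet1d 11 and 7 in tumor and 0 elsewhere, and H60c at most 2 in a library.

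Genes of signalling below the adaptors were mostly within 2-fold between labels. In thymus 0 of 15 were at least 2-fold higher or lower (median 0.02), and in spleen and tumor 2 of 15 were higher and 0 lower (medians 0.38 and 0.41). The shares of all genes that were higher and lower were 6.46% and 6.56% in thymus, 10.8% and 2.89% in spleen and 7.24% and 9.99% in tumor. The highest in tumor was Lat2 (37 and 217 UMIs, log2 2.47), a linker of B and myeloid cells, and the highest in spleen was Plcg2 (1 and 36 UMIs, log2 2.76), a phospholipase of B cells. B cell markers were also higher in that spleen library: they summed to 80.4 CPM (3 of 4 detected, Ms4a1 at 0) and 912 CPM (4 of 4), nearly all of it Igkc (93 and 6572 UMIs), and their part was not tested.

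Memory and effector genes had medians above 0 between labels in each tissue, but not among thymic cells without Dntt, Rag1 or Rag2 RNA. In thymus 7 of 16 were at least 2-fold higher in the library labelled Pdcd1 cKO and 1 lower (median 0.81, from Gzma at −1.13 to Gzmb at 2.69), in spleen 8 of 17 and 0 lower (0.74, highest Gzmk at 2.17) and in tumor 6 of 16 and 1 lower (0.80, from Gzmm at −1.89 to Gzma at 2.67). Of all genes, 6.46%, 10.8% and 7.24% were higher in thymus, spleen and tumor and 6.56%, 2.89% and 9.99% lower. Without cells with Dntt, Rag1 or Rag2 RNA, 2 of 16 were higher in thymus and 2 lower (median −0.07), beside 4.76% and 10.7% of all genes. Below 2 myeloid markers 5 were higher in tumor, where 5.9% of 11190 genes were higher, and 3 were lower. Naive genes gave 0 of 8 higher in each tissue and 1 of 8 lower, in tumor (Ccr7, −2.06), where 3 were lower below 2 myeloid markers. Other markers in spleen cells with CD8 RNA went the same way as the receptors: natural killer markers summed to 16.7 and 35.1 CPM (Ncr1 and Itga2 at 0 in the first, led by Klra8), gamma-delta markers to 10.1 and 34.1 CPM (2 and 4 of 4 detected), innate-like markers to 259 and 355 CPM and granulocyte progenitor markers to 0 and 76.3 CPM (Mpo 0 and 229 UMIs). Myeloid markers there summed to 6.52 and 23.5 CPM with C1qa and C1qc at 0 in both. In tumor cells with CD8 RNA the natural killer markers were at 6.90 and 3.53 CPM (6 of 6 detected in both), with Ncr1 at 1 and 4 UMIs.

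The remaining marker sums are also for cells with CD8 RNA. T cell markers, 6 of 6 detected in each library, summed to 5665 and 5318 CPM in thymus and 3717 and 4729 CPM in spleen, led by Trbc2 or, in the spleen library labelled Pdcd1fl/fl, by Cd3d. The 2 CD8 genes summed to 472 and 656 CPM in thymus and 1187 and 1358 CPM in spleen. Innate-like markers, led by Il2rb, were at 61.3 and 72.6 CPM in thymus and 227 and 419 CPM in tumor, and gamma-delta markers, led by Trgc2, at 4.35 and 12.3 CPM in tumor. Myeloid markers were at 11.8 and 8.13 CPM in thymus (6 of 10 detected in each, led by Apoe, C1qa and C1qc at 0). Mast cell and basophil markers, led by Cpa3, were at 12.6 and 9.56 CPM in thymus, 0.724 and 2.32 CPM in spleen and 1.5 and 3.82 CPM in tumor, with Fcer1a at 0 except in the spleen library labelled Pdcd1 cKO. Granulocyte progenitor markers were at 0 and 0.237 CPM in thymus and 2.55 and 0.848 CPM in tumor, and B cell markers at 16.7 and 11.3 CPM and 14.7 and 46.5 CPM. Dendritic cell markers summed to 2.19 and 1.26 CPM in thymus, 3.62 and 1.502 CPM in spleen and 1.80 and 2.12 CPM in tumor, and platelet markers to 1.92 and 0.790 CPM, 1.45 and 3.82 CPM, and 5.25 and 11.4 CPM. Immature thymocyte markers were at 2.90 and 7.10 CPM in spleen and 21.6 and 2.54 CPM in tumor, with Rag1 and Rag2 at 0 in those 4 libraries. Melanoma markers were at most 1.97 CPM outside the tumor.

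By position, 7 of the 10 genes lie on mouse chromosome 6 (build GRCm39, GENCODE annotation). Klre1 (ENSMUSG00000050241, chr6:129554868-129562791), Klrd1 (ENSMUSG00000030165, chr6:129568677-129575738), Klrk1 (ENSMUSG00000030149, chr6:129587286-129600827), Klrc2 (ENSMUSG00000052736, chr6:129624459-129637652) and Klrc1 (ENSMUSG00000030167, chr6:129642978-129655936) lie in this order within 101069 bases, the first 2 on the plus strand and the last 3 on the minus strand. Klrb1c (ENSMUSG00000030325, chr6:128755448-128766178) and Klrg1 (ENSMUSG00000030114, chr6:122246981-122259914) lie further off, both on the minus strand. Tyrobp (ENSMUSG00000030579, chr7:30113170-30117010, plus) and Hcst (ENSMUSG00000064109, chr7:30117135-30119297, minus) are tail to tail with 124 bases between their ends, and Fcer1g is on chromosome 1 (ENSMUSG00000058715, chr1:171057141-171062219, minus). In tumor cells with CD8 RNA, the neighbours Tyrobp and Hcst had 73% and 88.8% (Tyrobp) and 15.0% and 18.9% (Hcst) of their UMIs in cells with at least 2 myeloid markers.

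Promoter sequence is shown for the 4 members at least 2-fold higher under the label Pdcd1 cKO in both thymus and spleen, Klre1, Klrk1, Klrc2 and Klrc1. Klrd1, which was not, lies between Klre1 and Klrk1, and Klrc3, not a member, between Klrk1 and Klrc2. RefSeq promoter windows of 300 bases around the first listed start (build GRCm38.p6) were found for 7 of the 10 genes, and none was found for Klrd1, Klrg1 and Tyrobp. Capitals mark the RUNX motif TGTGGT or its reverse complement. The windows are chr6:129577963-129578262 (Klre1, plus strand), chr6:129623815-129624114 (Klrk1, minus), chr6:129660547-129660846 (Klrc2, minus) and chr6:129678924-129679223 (Klrc1, minus), each printed 5′ to 3′ along its gene.
Klre1: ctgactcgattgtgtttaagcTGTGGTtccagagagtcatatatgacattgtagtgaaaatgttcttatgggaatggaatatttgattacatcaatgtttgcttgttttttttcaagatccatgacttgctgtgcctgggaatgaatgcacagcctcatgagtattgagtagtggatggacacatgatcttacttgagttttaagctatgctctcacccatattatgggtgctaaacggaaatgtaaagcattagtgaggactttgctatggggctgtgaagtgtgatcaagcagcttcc
Klrk1: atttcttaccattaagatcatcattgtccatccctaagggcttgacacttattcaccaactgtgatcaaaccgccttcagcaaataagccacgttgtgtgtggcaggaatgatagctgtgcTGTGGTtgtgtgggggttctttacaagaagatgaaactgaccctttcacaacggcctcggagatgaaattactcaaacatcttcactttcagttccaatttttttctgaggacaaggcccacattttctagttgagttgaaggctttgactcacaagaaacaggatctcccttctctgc
Klrc2: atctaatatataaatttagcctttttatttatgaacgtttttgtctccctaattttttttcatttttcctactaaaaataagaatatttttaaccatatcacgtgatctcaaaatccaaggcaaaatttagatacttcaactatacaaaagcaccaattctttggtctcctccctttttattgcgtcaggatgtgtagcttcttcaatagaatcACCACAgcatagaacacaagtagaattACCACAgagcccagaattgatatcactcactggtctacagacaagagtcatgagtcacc
Klrc1: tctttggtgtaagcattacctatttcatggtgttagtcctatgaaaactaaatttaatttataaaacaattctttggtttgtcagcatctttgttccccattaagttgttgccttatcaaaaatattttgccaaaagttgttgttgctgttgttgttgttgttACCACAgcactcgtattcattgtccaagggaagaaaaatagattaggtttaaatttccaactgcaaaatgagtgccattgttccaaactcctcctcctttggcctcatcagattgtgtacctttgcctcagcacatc
The 3 motifs, chosen after the values were seen, were searched on both strands. TGTGGT had 1 match in each of the windows of Klre1, Klrk1 and Klrc1 and 2 in that of Klrc2, and it was also in those of Klrb1c and Fcer1g but not of Hcst; 16.8% of 32851 mouse promoters of this length hold it. The T-box motif AGGTGTGA (1.28% of promoters) and the PU.1 motif GAGGAAGT (3.2%) were in none of the 7 windows. A match is a run of letters, not a binding site.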

How the data were processed

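UMI counts per gene and barcode were made by the authors with the PIPseq pipeline against GRCm39 and deposited without normalization for 6 libraries, and the annotation release is not given in the sources used here. The study's filter was applied here: barcodes with fewer than 500 genes, fewer than 1000 UMIs or over 20% mitochondrial counts were left out (upstream analysis used Seurat 4.3.0). No doublet caller was run. For each gene, counts were summed per library over cells with or without CD8 RNA and scaled to CPM with exact intervals at 95%. Ratios past 2-fold were counted among genes with at least 20 UMIs in the pair. The named genes were the 10 members, Pdcd1, other killer lectin genes with at least 20 UMIs, the most abundant, highest and lowest gene of each list, and genes among the 10 leading ones of receptor-positive cells. Others were named after their values were seen. The members and lists were chosen with earlier results of these data known. Python 3.11.15, numpy 2.4.6, scipy 1.17.1, pandas 2.3.3 and matplotlib 3.10.9 were used, and the ratio and interval code was tested on simulated data.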

Additional observations from a re-analysis of the deposited data

How the results depend on the processing

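Each choice was changed alone: no barcode filter, other CD8 rules, other scalings, other cells kept, a minimum of 50 UMIs, and unthinned shares. Leaving out cells with a UMI of C1qa, C1qb, C1qc or Lyz2 was chosen after seeing the data, as were the values of receptor-positive thymic cells without Dntt or Rag RNA and of the Fcer1g and Tyrobp pair below 2 myeloid markers, of which 3 of 4 moved. Of the log2 ratios of members between labels, 230 kept within their counting interval under an alternative, 39 moved beyond it, and 1 that was past 2-fold changed direction: Fcer1g in spleen, −0.22 with at least 2 CD8 UMIs against 2.05. Of the counts of members past 2-fold, 146 were within 1.5 times the main count and 16 were not. In thymus, the number higher under the label Pdcd1 cKO was 1 in place of 4 without cells with Dntt, Rag1 or Rag2, and the number lower was 1 in place of 0 with Cd8b1 alone and without the C1q or Lyz2 cells. In tumor the number higher was 1 in place of 2 without the C1q or Lyz2 cells. For cells with over cells without CD8 RNA, the thymus library labelled Pdcd1fl/fl had 1 higher in place of 3 with at least 2 CD8 UMIs. The spleen library labelled Pdcd1 cKO had 0 higher in place of 1 with Cd8b1 alone, with at least 2 CD8 UMIs and with 50 UMIs per member. It had 0 lower in place of 1 with at least 2 CD8 UMIs, without cells with 2 or more myeloid markers, without the C1q or Lyz2 cells and with 50 UMIs, and 2 lower with CD8 RNA read after thinning. Without the C1q or Lyz2 cells the tumor libraries had 1 lower each, in place of 3 and 2, and the one labelled Pdcd1 cKO also had 1 lower without cells with 2 or more myeloid markers. For these values the cause was not tested. Of the shares of cells, 44 moved beyond their interval without thinning and 16 did not. No paired analysis was possible because each label has 1 library per tissue.

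With 1 library per label and tissue, intervals hold no variation between mice, and label, mouse, cell makeup and library cannot be told apart. Pdcd1 RNA goes against the labels in thymus and spleen, and in tumor it does not tell them apart (log2 0.10, −0.05 to 0.25). Median depth was lowest in spleen, which limits the reading of CD8 RNA per cell there. Free RNA and doublets were not removed. The split between Klrc1 and Klrc2 is uncertain because they share sequence. That among Klra genes may be uncertain as well, since their shared sequence was not measured. Klrg1 and Klrb1c, and Tyrobp and Fcer1g outside the tumor, rest on few UMIs, so that differences within their intervals were not detectable at this depth.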
